A study of Rattus norvegicus with 12 samples.

Results

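Cthrc1 (collagen triple helix repeat containing 1) was 1 of 18166 genes read on arrays from denervated and sham-operated rat bladders. It was taken because the study had singled it out as a secreted protein of the denervated bladder, and it is represented by the 1 probe set (17829083) whose only gene symbol is Cthrc1 (gene ID 282836). The denervated group held 6 bladder samples taken 10 days after the ganglia that supply the organ had been frozen on both sides during surgery. The sham group held 6 bladder samples from rats that had surgery without the freezing. All were female Sprague Dawley rats of about 3 months, with no transgene named, and 1 array was hybridised per sample. The labels do not state that the 12 samples come from 12 different animals, so p-values measure the spread between these samples, which may be technical in part.

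CTHRC1 is a small secreted glycoprotein with a short collagen-like stretch. It was first described in injured rat arteries, where it appears in the adventitia and in newly formed intima, and it has since become a marker of activated fibroblasts in scarring heart, lung and skin. Laboratory work has linked it to cell migration, to lower collagen matrix and weaker TGF-beta signalling in some cells, and to the planar cell polarity branch of Wnt signalling through a complex of WNT5A, Frizzled-6 and ROR2. In the bladder, loss of the pelvic ganglia removes the nerves that empty the organ, which then overfills and enlarges.

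Levels are log2 expression values, so a step of 1 is a 2-fold step in signal. Cthrc1 stood at 11.43, 9.37, 11.53, 11.32, 11.16 and 10.64 in denervated replicates 1 to 6, against 7.20, 7.71, 7.82, 7.35, 7.17 and 7.75 in sham replicates 1 to 6. Every denervated value lay above every sham value, and the lowest denervated value exceeded the highest sham value by 1.55, or 2.92-fold. Group means were 10.91 ± 0.82 in denervated and 7.50 ± 0.29 in sham bladders (SD, n = 6 each). The difference was 3.41 ± 0.31 (SE, 95% interval 2.74 to 4.08), which is a signal 10.6-fold higher in denervated bladders with an interval of 6.66 to 16.9-fold (limma, adjusted p = 3.73e-05). An exact two-sided permutation test over the 924 ways to divide the 12 arrays gave p = 0.0022, the smallest that 6 against 6 can give. Because the study drew attention to the gene on these same samples, these p-values are not independent evidence for it.

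**Figure D1:**
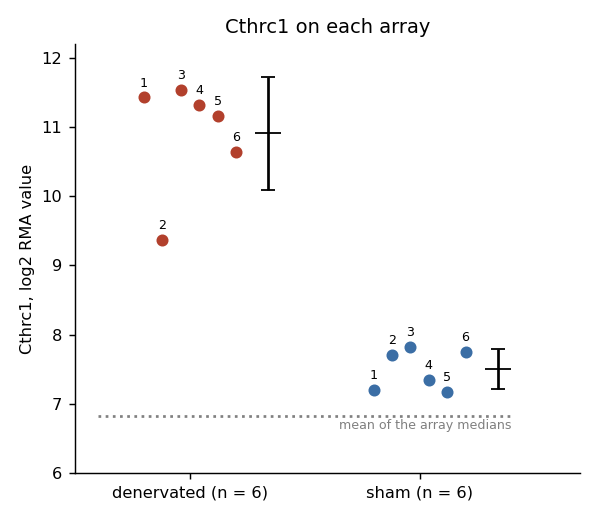
Cthrc1 log2 value on each of the 12 arrays, denervated left and sham right, with replicate numbers beside the points and the mean ± SD of each group as a bar (n = 6 each). The dotted line is the mean of the array medians. Denervated replicate 2, at 9.37, lies between the sham arrays (7.17 to 7.82) and the other 5 denervated arrays (10.64 to 11.53).

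Among all genes, 28.7% were called (adjusted p under 0.05), 11.9% higher and 16.9% lower in denervated bladders, and in 5.76% every denervated value lay above every sham value. The balance turned when limma tested against a change of 1.2-fold, with 756 higher and 496 lower calls, and the share of calls that were higher was then 60.4%, against 41.3% with no minimum. Set against these shares, a call was common on these arrays, and a clean separation in either direction was found in 13.3% of genes. Large rises were rarer, with 2.9% of genes called at least 2-fold higher. Cthrc1 had the 11th largest rise of 18166, and the gap between its groups ranked 6. On sham arrays its mean lay 0.68 above the array medians, and on denervated arrays 4.07 above them. The table has no detection call, so how far the sham signal exceeded background is not known, and the 10.6-fold difference is uncertain to that extent.

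The denervated replicates did not carry equal amounts of Cthrc1. The other 5 besides replicate 2 lay close together at 11.21 ± 0.35 (SD, n = 5), an SD 1.2 times that of the sham arrays. Replicate 2 stood only 1.87 above the sham mean, or 3.65-fold. The same array stood apart in the data as a whole. The first principal component held 58.0% of the variance. There the other 5 denervated arrays scored 25.9 to 42.5 and replicate 2 scored -5.84, whereas sham scores were -30.2 to -22.5. Without it the difference in Cthrc1 was 3.71 ± 0.17 (13.1-fold, limma adjusted p = 5.75e-08), and its rank among rises remained 11. Replicate 2 had reached 50.3% of the Cthrc1 rise of the other 5. Over the 639 genes at least 2-fold higher in those 5 than in sham bladders, the median share was 38.5%, with quartiles of 19.4% and 55.8%, so that 435 of them had a smaller share than Cthrc1. Those genes were picked by their rise in the same 5 arrays, which can lower the share found in replicate 2. The comparison is therefore a description and does not set Cthrc1 apart.

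The labels describe the tissue as over 95% smooth muscle. All 8 measured smooth muscle markers lay above the array medians in sham bladders, but so did all 14 urothelial markers. Marker lists differed in how many of their genes changed, against 28.7% called over all genes. Macrophage markers averaged 9.49 to 10.31 on denervated and 8.59 to 8.80 on sham arrays, with 13 of 14 called higher, C1qa, C1qb and C1qc among them. Proliferation markers averaged 6.38 to 8.30 and 5.59 to 7.25, with 8 of 8 higher, and 7.73 to 8.30 on the denervated arrays other than replicate 2. Lymphocyte markers averaged 6.20 to 7.20 and 5.75 to 5.88, with 8 of 12 higher. General fibroblast markers averaged 11.12 to 11.85 on denervated and 10.99 to 11.35 on sham arrays, with 6 of 12 higher. Urothelial markers averaged 9.92 to 10.38 and 10.76 to 11.01, with 14 of 14 lower, and of the smooth muscle markers (10.99 to 11.57 and 11.61 to 11.79) 5 of 8 were lower and 1 higher. Schwann cell markers averaged 7.83 to 8.54 on denervated and 8.91 to 9.06 on sham arrays, with 6 of 8 lower, and neuron and axon markers 5.96 to 6.26 and 6.32 to 6.56, with 3 of 12 lower, 1 higher and 8 not called, a share near that over all genes. Of the endothelial markers 4 of 8 were higher, of the adipocyte markers 3 of 8 were lower, and the rest of both lists were not called. Denervated replicate 2 had the lowest denervated average of the macrophage, proliferation, fibroblast, endothelial and adipocyte markers. It had the highest of the smooth muscle, urothelial and Schwann cell markers. In whole tissue, more cells of a type and more RNA per cell cannot be told apart, and the part of the marker shifts in the Cthrc1 difference was not tested.

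Genes that accompany Cthrc1 in activated fibroblasts rose with it. Of 32 measured genes, 28 rose, 1 fell and 3 were not called, with a median difference of 1.50 against -0.04 over all genes. Over all genes, 11.9% were called higher and 16.9% lower. In that list 2 genes rose by more than Cthrc1, Grem1, whose secreted protein binds and blocks bone morphogenetic proteins, and Cilp, a matrix protein first known from cartilage. Grem1 ranged over 7.83, 11.07 and 11.37 in denervated bladders (lowest, median, highest), against 5.56, 6.04 and 6.14 in sham bladders, a rise of 4.55 ± 0.49 (adjusted p = 9.23e-05). Cilp had 7.85, 10.88 and 11.17 in denervated bladders, against 5.83, 6.87 and 7.40 in sham bladders, a rise of 3.52 ± 0.51 (adjusted p = 0.000393). Neither gene's groups overlapped, and in both the lowest denervated value was that of replicate 2, as for Cthrc1. Ltbp2, a protein of elastic microfibrils, rose by 2.76 ± 0.43, and Lrrc15, a membrane protein of myofibroblasts, by 2.52 ± 0.39. Fap, the fibroblast activation protein, rose by 1.58 ± 0.34, and periostin (Postn), a matricellular protein of healing tissue, by 1.14 ± 0.16. Sfrp2, a secreted Wnt-binding protein, fell by 0.45. Pdgfra, a receptor found on resting fibroblasts too, was not called, with a difference of 0.16 ± 0.10, but was called higher without denervated replicate 6 (0.24, adjusted p = 0.0282). Several of these genes were chosen with earlier results of the same arrays known, so the count describes them and is not independent evidence of a direction.

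Genes for the collagens that build fibrils, and for making them, rose by smaller amounts. Of 25 measured, 19 rose, 0 fell and 6 were not called, with a median difference of 0.63. Beside this, 11.9% of all genes were called higher and 16.9% lower. The count of rises in the list was 16 to 22 when each array was left out in turn. Collagen I, the main fibril protein, changed little beside Cthrc1. Col1a1 had 12.75, 13.18 and 13.36 in denervated bladders (lowest, median, highest), against 12.23, 12.44 and 12.80 in sham bladders, a rise of 0.60 ± 0.13 (adjusted p = 0.00447) with overlapping groups. Col3a1 rose by 0.49 ± 0.10 and Col5a2 by 1.27 ± 0.20. The largest rises in the list were those of Col11a1 (2.62 ± 0.52), a minor fibril chain, the prolyl hydroxylase subunit P4ha3 (2.48 ± 0.41) and the lysyl hydroxylase Plod2 (1.52 ± 0.28). Outside this list, among the activated fibroblast genes, Lox, the enzyme that cross-links collagen and elastin, rose by 2.03 ± 0.29, and fibronectin (Fn1) by 1.60 ± 0.19. Col1a1 and Col3a1 were among the brightest signals on these arrays. Whether signals that bright saturate was not tested.

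Other proteins with a collagen-like stretch did not rise as one. Of 31 measured, secreted or on the cell surface, 12 rose, 0 fell and 19 were not called, with a median difference of 0.14. The share that rose was above the 11.9% called higher over all genes, of which 16.9% were called lower. No member of the list rose as much as Cthrc1. C1qtnf3, of the C1q and TNF related family, rose by 2.56 ± 0.47 and its relative C1qtnf6 by 1.49 ± 0.27. In both, denervated replicate 2 (7.06 and 7.91) lay within the sham range, at 6.59 to 7.35 and 7.27 to 7.94. Msr1, a macrophage scavenger receptor, rose by 1.74 ± 0.20, and the ficolin Fcnb by 1.59 ± 0.46. The complement subunits C1qa (1.32), C1qb (1.18) and C1qc (1.15) rose too. Macrophages are a main source of C1q in tissues, and these 3 genes are themselves in the list of macrophage markers. Adipoq, the fat cell hormone adiponectin, was not called (-0.24 ± 0.56).

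**Figure D2:**
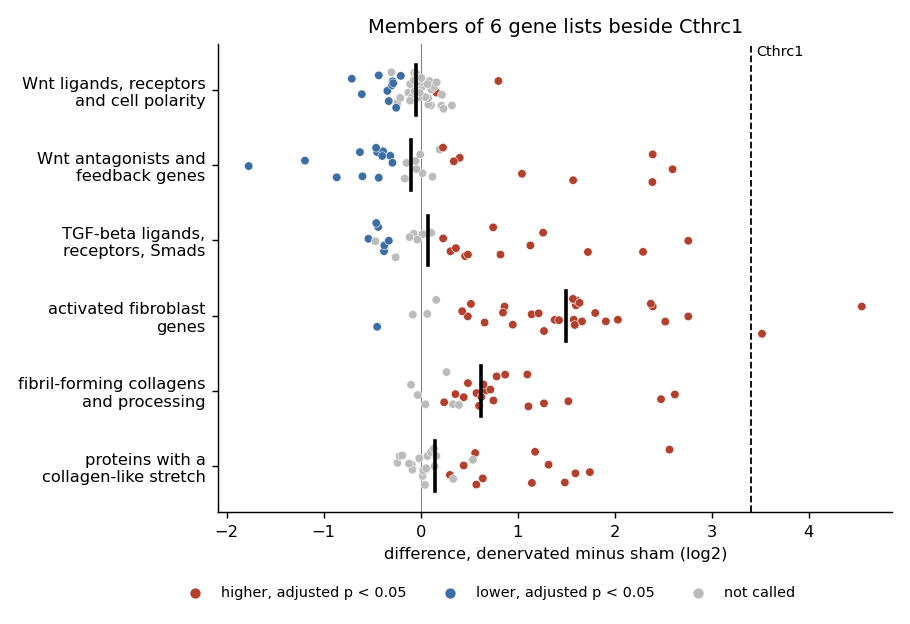
Log2 difference, denervated minus sham, for each measured member of 6 gene lists (points, red where called higher, blue where called lower, grey where not called), with the median of each list as a short bar and Cthrc1 (3.41) as a dashed line. Activated fibroblast genes, with a median of 1.50, lie farthest to the right, and only 2 members of that list lie beyond Cthrc1.

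The TGF-beta pathway, which induces Cthrc1 in several cell types and is restrained by it in some, moved in both directions. Of 26 measured ligands, receptors, Smads and target genes, 12 rose, 6 fell and 8 were not called, with a median difference of 0.07. The shares over all genes were 11.9% higher and 16.9% lower. The ligands of the pathway rose: Tgfb1 by 1.13 ± 0.10, Tgfb3 by 1.72 ± 0.29 and Tgfb2 by 0.46 ± 0.10. Tgfb1 had 9.57, 10.04 and 10.27 in denervated bladders (lowest, median, highest), against 8.76, 8.89 and 8.99 in sham bladders, and its adjusted p of 3.73e-05 was that of Cthrc1. Lrrc32, which holds latent TGF-beta at the cell surface, rose by 1.26 ± 0.19, and the latent TGF-beta binding protein Ltbp3 by 0.75 ± 0.12, while Ltbp4 of the same family fell (-0.46 ± 0.12, adjusted p = 0.0112, groups not overlapping). The type I receptor Tgfbr1 rose by 0.31 ± 0.06. Among the transducers, Smad2 (0.11 ± 0.07), Smad3 (-0.26 ± 0.11), Smad4 (-0.07 ± 0.07) and the inhibitory Smad7 (-0.11 ± 0.07) were not called, although Smad3 was called lower without denervated replicate 2 (-0.33, adjusted p = 0.0181). Smad6, the other inhibitory Smad, fell (-0.37 ± 0.10, adjusted p = 0.0118). Genes that TGF-beta induces went both ways, with Ccn2 (2.29 ± 0.41) and Pmepa1 (0.82 ± 0.15) higher and Tgfbi (-0.33 ± 0.08) lower.

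The partners through which CTHRC1 is thought to act on Wnt signalling did not move as one, and the call of Ror2 depended on the arrays used. Wnt5a fell, with 8.26, 8.46 and 8.64 in denervated bladders (lowest, median, highest), against 8.72, 8.82 and 8.91 in sham bladders, a difference of -0.34 ± 0.07 (adjusted p = 0.00314). Its groups did not overlap, and the direction was opposite to that of Cthrc1. The co-receptor Ror2 was not called. It had 8.36, 8.84 and 9.21 in denervated bladders, against 8.38, 8.43 and 8.69 in sham bladders (0.32 ± 0.13, adjusted p = 0.0822). Without denervated replicate 2 it was called higher (0.41, adjusted p = 0.0153), as it was without replicate 6 (0.39, adjusted p = 0.0367). Frizzled-6 (Fzd6) differed by 0.05 ± 0.06 and was not called.

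Fzd6 is also the neighbour of Cthrc1 on the chromosome, by the order of genes in the RefSeq table. Of the nearest 2 protein-coding genes on each side, 0 were called, against 28.7% over all genes, and so few genes cannot set the neighbourhood apart. Baalc differed by 0.32 ± 0.12, Slc25a32 by -0.09 ± 0.06 and Dcaf13 by 0.03 ± 0.06. Baalc was called higher without denervated replicate 2 (0.39, adjusted p = 0.0204) or replicate 6 (0.40, adjusted p = 0.0166).

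Over the wider set of Wnt ligands, receptors and planar cell polarity genes, 2 of 47 rose, 10 fell and 35 were not called, with a median difference of -0.04, the same as over all genes. A count of 12 called, 10 of them lower, is near what the shares over all genes (28.7% called, 16.9% lower) give for 47 genes, so it does not set the list apart, and the values that follow describe single genes. Prickle1, a core planar cell polarity gene, rose by 0.80 ± 0.19. Wnt4 was the other, by 0.16 ± 0.06 (adjusted p = 0.0469), and it was not called without denervated replicate 1, 3, 4 or 5 or any one sham replicate (adjusted p of 0.0525 to 0.100). The count of rises was 1 without denervated replicate 1, 3, 4 or 5 or sham replicate 1, 2, 3, 4 or 5, and 5 without denervated replicate 6. Wnt2b (-0.71 ± 0.12), Wnt7b (-0.61 ± 0.09) and the receptor Fzd7 (-0.43 ± 0.10) fell, as did the polarity genes Vangl2 (-0.33) and Celsr2 (-0.30).

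Secreted Wnt antagonists and genes that report Wnt activity were split, with 8 of 28 higher, 12 lower and 8 not called. Both counts are larger shares of the list than the 11.9% higher and 16.9% lower over all genes. The antagonists Sfrp4 (2.60 ± 0.37), Sfrp1 (1.57), Dkk3 (1.04) and Wif1 (0.40) and the matricellular Ccn4 (2.39 ± 0.31) and Ccn5 (2.39 ± 0.34) rose. The antagonists Sfrp5 (-1.77 ± 0.15), Sostdc1 (-0.86), Sfrp2 (-0.45), Notum (-0.40), Dkk2 (-0.39) and Apcdd1 (-0.31) fell. Notum was not called without denervated replicate 1 or 4 or sham replicate 1 or 5 (adjusted p of 0.0528 to 0.0704). Among feedback genes of the beta-catenin branch, Axin2 (-0.29), Nkd1 (-0.60), Nkd2 (-0.63), Rnf43 (-0.43) and the receptor Lgr5 (-1.19) fell, and Lef1 (0.20) and Sp5 (0.00) were not called. The transcription factor Tcf7 (0.23 ± 0.08, adjusted p = 0.0436) and the receptor Lgr6 (0.34 ± 0.11, adjusted p = 0.0328) rose. Tcf7 was not called without denervated replicate 1, 5 or 6 or sham replicate 1, 2, 3, 4 or 6 (adjusted p of 0.0507 to 0.0931), and Lgr6 was not called without denervated replicate 1, 3, 4 or 5 or sham replicate 1, 2 or 3 (adjusted p of 0.0610 to 0.0680).

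The array-by-array pattern of Cthrc1 was then set against that of every other gene. The measure was Pearson's r over the 12 arrays, given as a description with no p, because the 12 points fall into 2 groups and mostly record the group difference. By that measure 622 of 18165 genes reached 0.9 and 155 reached 0.95. A second measure took each array's deviation from its own group mean, which leaves out the group difference. Only 46 genes reached 0.9 by it and 5 reached 0.95.

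Galnt16, an enzyme that starts mucin-type O-glycosylation, was most like Cthrc1 on both measures (r = 0.99 over 12 arrays, 0.98 over deviations). It had 8.23, 7.19, 8.40, 8.19, 8.05 and 7.83 in denervated replicates 1 to 6, against 6.51, 6.55, 6.69, 6.48, 6.27 and 6.65 in sham replicates 1 to 6. Both groups follow the order of Cthrc1 closely, with r = 0.99 among denervated and 0.84 among sham arrays. Without denervated replicate 2 Galnt16 was still the most alike of all genes over the arrays (r = 0.996), and over deviations it ranked 7 (r = 0.91). Its rise was 1.45 ± 0.17 (adjusted p = 0.000116).

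Igf1, a growth factor made by stromal cells (r = 0.99), came next over the 12 arrays, then Anpep, the surface peptidase aminopeptidase N (0.99), and Prss35, a secreted protease-like protein (0.98). Vim, the mesenchymal filament protein vimentin, Adam12, a membrane metalloprotease, Nav3, a microtubule-binding protein, and Plxnd1, a semaphorin receptor, completed the first 8, each at 0.98. All of these genes rose, by 0.60 (Vim) to 3.71 (Prss35). Within the groups they differed. Adam12 followed Cthrc1 among sham arrays too (r = 0.93) and over deviations without denervated replicate 2 (0.92), whereas Anpep did not keep its likeness there (0.42) and Vim stood at 0.21 among sham arrays. Over deviations, Poglut3, a protein O-glucosyltransferase (0.97), Cilp (0.96), Sema3d, a secreted guidance protein (0.95), and Ercc6l, a helicase of mitosis (0.95), followed Galnt16. Without denervated replicate 2 these 5 had r of 0.80 to 0.91, and 0 of them were among the 5 most alike. The rise of Ercc6l was slight (0.54 ± 0.19, adjusted p = 0.0464). Its values, 4.29 to 5.56 in denervated and 4.41 to 4.98 in sham bladders, lay below the array medians (6.80 to 6.86). The lowest of them was that of denervated replicate 2. Ercc6l was not called without denervated replicate 1, 3, 4, 5 or 6 or sham replicate 1, 2, 4, 5 or 6, with adjusted p of 0.0538 to 0.0987.

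The genes that ran most opposite to Cthrc1 fell in denervated bladders. They were Ccdc47, an endoplasmic reticulum membrane protein (r = -0.99), Aktip (-0.99), Slc16a7, a carrier of lactate and pyruvate (-0.98), and the junction scaffold Mpp7 (-0.98). Slc16a7 had 8.88, 9.07 and 9.46 in denervated bladders (lowest, median, highest), against 9.89, 10.08 and 10.28 in sham bladders, a fall of 0.98 ± 0.10 on the log2 scale (adjusted p = 6.88e-05). The other 3 fell by 0.47 to 0.92.

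**Figure D3:**
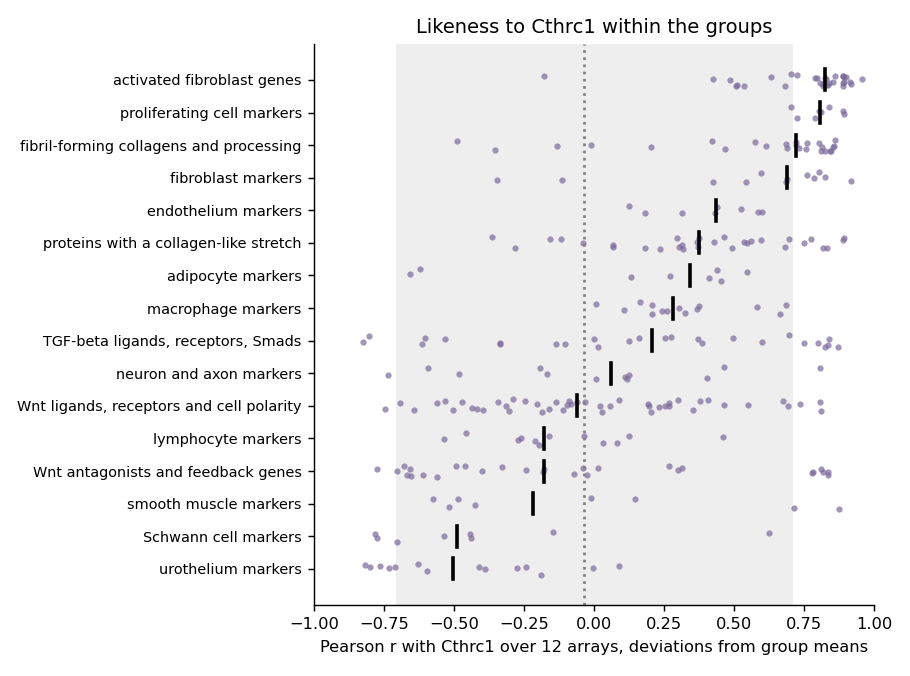
Pearson's r with Cthrc1 over the 12 arrays after removing group means, for the measured genes of 6 lists and 10 sets of cell type markers (points), with list medians as bars. The grey band spans the percentiles 5 to 95 of all genes (-0.71 to 0.71) and the dotted line is their median (-0.04). Activated fibroblast genes (median 0.83) and proliferation markers (0.81) lie highest.

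By gene group, likeness to Cthrc1 within the groups over all 12 arrays was highest for activated fibroblast genes, with a median r of 0.83 over deviations, against -0.04 over all genes. That first place was lost without denervated replicate 2. Proliferation markers stood at 0.81, fibril-forming collagens and their processing at 0.72 and general fibroblast markers at 0.69. Macrophage markers, which rose in denervated bladders as well, stood at 0.28, lymphocyte markers at -0.18 and urothelial markers at -0.51. Without it smooth muscle markers had the highest median of the 16 lists, at 0.60, against -0.22 with it, and activated fibroblast genes were no longer first, at 0.56. The other medians without it were 0.54 for proliferation markers, 0.53 for fibroblast markers, 0.51 for collagens, -0.40 for macrophage markers, -0.49 for urothelial markers and -0.50 for lymphocyte markers. Some lists share genes: Col1a1, Col1a2 and Col3a1 are in both the collagen and the fibroblast marker list, and Pdgfra is in both fibroblast lists. All genes of a list share the same 12 arrays, so these medians describe the arrays and carry no test.

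For 13 genes, relations with Cthrc1 were tested within each group, 26 in all, by exact permutation over the 720 pairings of 6 arrays. Only Mki67, the proliferation antigen, passed adjustment, and only among denervated arrays. There it had 10.00, 7.40, 10.07, 9.91, 9.81 and 9.21 in replicates 1 to 6, in the same order as Cthrc1. Pearson's r was 0.995 (exact permutation p = 0.00139, adjusted p = 0.0361). Spearman's rho was 1.00 (exact permutation p = 0.00278), and its adjusted p of 0.0722 did not pass. Without the 2 arrays farthest from the Cthrc1 median, replicates 2 and 6, r was 0.9995 over 4 arrays. Mki67 was 1 of 56 genes that shared the order of Cthrc1 over the 6 denervated arrays. All 8 proliferation markers had r of 0.94 or more with Cthrc1 among denervated arrays, and 0.12 to 0.72 among sham arrays. Over all genes, 475 of 18165 reached 0.9 among denervated arrays. Over deviations from the means of both groups, without denervated replicate 2, r of the 8 markers was 0.34 (Aurkb) to 0.68 (Cdk1).

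In sham bladders Mki67 gave r = 0.54 and rho = 0.60 (exact permutation p = 0.278 and 0.242), or r = 0.22 without sham replicates 1 and 5. Sham replicate 3, at 8.60, had the highest Mki67 of that group, above denervated replicate 2, and also the highest sham Cthrc1. Whether the relation differs between the groups was not tested. The rise of Mki67 in denervated bladders was 2.59 ± 0.50 (adjusted p = 0.00202).

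For the matrix and fibroblast genes the relation among denervated arrays did not pass adjustment. Col1a1 (r = 0.84), Col3a1 (0.91), Fn1 (0.96), Postn (0.95), Lox (0.97), Fap (0.89) and Ror2 (0.83) had unadjusted exact permutation p of 0.0125 to 0.0306 over 6 arrays. Their adjusted p of 0.0825 to 0.0993 did not pass, and Spearman's rho of 0.49 to 0.83 had exact permutation p of 0.0583 to 0.356. Without replicates 2 and 6 their r ranged from -0.81 for Fn1 to 0.26 for Col3a1, so the relation rests on those arrays. For the macrophage gene Cd68, r was 0.36 (exact permutation p = 0.533, adjusted p = 0.630), and for Tgfb1 0.82 (exact permutation p = 0.0889, adjusted p = 0.231). For both, r without replicates 2 and 6 was below 0, at -0.95 and -0.96 over 4 arrays. Wnt5a stood at 0.46 among denervated and -0.78 among sham arrays (exact permutation p = 0.390 and 0.0806). Among sham arrays 0 of 13 relations had an unadjusted exact p under 0.05.

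**Figure D4:**
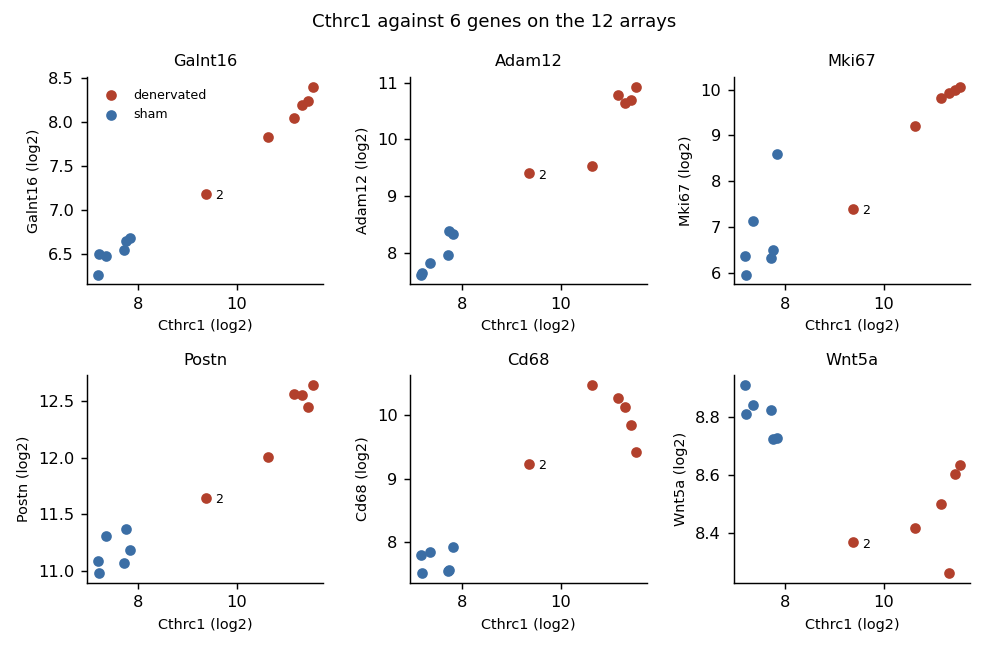
Cthrc1 (x axis) against Galnt16, Adam12, Mki67, Postn, Cd68 and Wnt5a (y axes) on the 12 arrays, all as log2 values, denervated in red and sham in blue, with denervated replicate 2 marked. Galnt16 and Adam12 rise with Cthrc1 within both groups, Mki67 among the denervated arrays (r = 0.995), and Wnt5a lies lower in all 6 denervated arrays than in any sham array.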

How the data were processed

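Bladder RNA of 12 samples was read on 12 arrays. The log2 values used are those the authors deposited for 36685 probe sets, made by RMA in Affymetrix Expression Console 1.4.1.46 per the submitters' processing notes, and tested without further normalization or filter. The genome build is not given in the sources used here. Of 18511 probe sets with 1 platform gene symbol, 18394 matched a RefSeq table (GRCr8, names and gene order only), and the brightest probe set stood for a gene, which left 18166 genes. Array medians over these genes lay between 6.80 and 6.86. Precision is limited by there being 6 arrays a group.

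Groups came from sample titles. Denervated minus sham was tested with limma 3.58.1 in R 4.3.3 (lmFit, eBayes, two-sided, Benjamini-Hochberg over all 18166 genes, threshold 0.05), and this fit gives every adjusted p of a gene. The code was tested on simulated data. Correlations used SciPy 1.17.1 and exact permutation, adjusted over 26 relations. Named genes were up to 4 called members with the largest change per list, the 13 correlation genes, the 8 most and 4 least alike, the 5 most alike over deviations, neighbours, and 6 genes tied to Cthrc1. Further list members named as examples were chosen after their values were seen. The gene, lists and rules were chosen with earlier results of these data known. Promoter motifs were not examined. Replicate numbers are shared by the groups, but correlations of deviations between same-numbered arrays (-0.11 to 0.10) do not pair them. No batch is given in the sources used here. The alternatives tried stand in the closing section.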

Additional observations from a re-analysis of the deposited data

Results flagged for a closer look

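Among 57 named genes and 114 gene and group combinations, 9 had 1 array far from the other 5 of its group (a gap above 0.625 of the group's range, which chance gives in about 1 in 20 groups). Denervated replicate 2 accounted for 6 of them, each time as the lowest value. It had 7.83 for Grem1 (10.18 to 11.37 in the other 5), 7.06 for C1qtnf3 (9.42 to 10.51), 9.93 for Lox (11.25 to 12.01), 7.40 for Mki67 (9.21 to 10.07), 10.89 for Igf1 (11.62 to 12.03) and 8.68 for Anpep (9.52 to 9.79). Cthrc1 itself was not among them. Denervated replicate 6 had 10.18 for Fcnb (6.89 to 7.56 in the other 5). Sham replicate 5 had 8.46 for Fzd7 (8.23 to 8.31), and sham replicate 2 had 4.59 for Lrrc15 (4.94 to 5.07).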

How the results depend on the processing

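The Cthrc1 difference was past the threshold, in the same direction, under all 21 alternatives run. It was 3.28 to 3.71 when each array was left out in turn and 3.38 to 3.65 under the other settings, which were quantile normalization, median centring, only genes brighter than the median gene, array weights, the trend and robust options of eBayes, the replicate block, the mean of probe sets, all probe sets in the adjustment and exact permutation. With the replicate number as a block, limma's adjusted p for Cthrc1 was 0.000734 (difference 3.41), the highest of the limma fits. Cthrc1 has 1 probe set, so the mean of probe sets could not change its values. Because its groups did not overlap, exact permutation could only give its smallest p. The median over all genes moved from -0.04 to -0.06 with median centring. Tested against a change of 1.2-fold, 756 genes were higher and 496 lower, against 2153 and 3063, and the share of calls that were higher was 60.4%, against 41.3%. Wnt ligand, receptor and polarity genes called higher numbered 1 with all probe sets, median centring or the replicate block, 5 with array weights, and 1 to 5 when arrays were left out. Proteins with a collagen-like stretch called lower numbered 1 after quantile normalization or median centring, and 0 to 1 when arrays were left out. For the genes that the naming rule picked, 57 with Cthrc1 and leaving Cthrc1 out, 1113 single-gene comparisons with an alternative were made, of which 1094 kept their side of the threshold, 11 lost it (all Ercc6l) and 8 gained it (Baalc, Ror2 and Smad3). Further list members named as examples are outside these counts, and calls of theirs that changed when an array was left out (Wnt4, Pdgfra, Tcf7, Lgr6 and Notum) are given in the results. Beside the gains without an array given above, array weights called Ror2 higher (0.45, adjusted p = 0.00527), Baalc higher (0.43, adjusted p = 0.00494) and Smad3 lower (-0.32, adjusted p = 0.0236). Of the 8 genes most like Cthrc1, 5 were still among the first 8 after quantile normalization, 7 after centring, 4 without denervated replicate 2 and 2 by Spearman's rho. Marker counts without denervated replicate 2, an alternative chosen after seeing the data, stayed within 1.5 times. Signal over background is unknown for all genes.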
